A study of Mus musculus with 20 samples.

Results

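The proteasome genes described here are the 50 genes of 28030 in the single-cell tables whose symbol begins with Psma to Psmg followed by a digit, without names that mark pseudogenes. Each gene was taken by its name and not by its level, although the family was chosen with earlier results of these data known. By role they are 7 alpha ring subunits, 7 beta ring subunits of the constitutive particle (3 of them catalytic), 6 ATPases of the regulatory particle base, 11 further base and lid subunits, 7 assembly chaperones, 4 activator genes, 1 inhibitor and the 3 inducible catalytic subunits Psmb8, Psmb9 and Psmb10. The pattern also takes Psma8, a testis form of an alpha subunit, Psmb11, the thymus catalytic subunit, Psme2b, a retrocopy of Psme2, and Psmc3ip, a partner protein of an ATPase subunit that acts in meiotic recombination and is no proteasome subunit. The immunoproteasome genes are Psmb8, Psmb9, Psmb10, Psme1 and Psme2 (5 genes), and the constitutive subunits are the 31 ring, base and lid genes without the inducible, testis and thymus forms.

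The proteasome is a barrel of stacked alpha and beta rings that degrades proteins tagged with ubiquitin, which the regulatory particle unfolds and feeds into it. Interferon gamma induces Psmb8, Psmb9 and Psmb10, which take the places of Psmb5, Psmb6 and Psmb7 in newly made particles and change which peptides are cut for class I presentation. Interferon also induces Psme1 and Psme2, the subunits of the PA28 activator. Immune cells carry much immunoproteasome at rest, and tumour cells can gain it when T cells release interferon nearby.

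The study transferred OT-I CD8 T cells, whose receptor recognises a peptide of ovalbumin, into mice bearing B16-OVA, a mouse melanoma line that expresses ovalbumin. Tet2-/- mice had been crossed to OT-I mice, and the Tet2 enzyme oxidises methylated DNA. At day 8 after transfer, cells were collected for 3′ single-cell RNA sequencing from 4 groups, 1 library each: mice given wild-type T cells alone or together with anti-PD-L1, and mice given Tet2 knockout T cells alone or together with anti-PD-L1. All 4 groups share the OT-I receptor, the B16-OVA tumour and the transfer. The labels place the genotype on the T cells, and nothing in them gives the host macrophages or the melanoma cells a knockout. They state neither which part of Tet2 was deleted nor the number, age or sex of the mice, the dose of the antibody or whether host CD8 T cells were removed. Tet2 itself stood at 13.9, 15.8, 23.1 and 18.0 CPM (counts of a gene scaled to the total UMIs of the cells summed) in CD8 T cells of the 4 libraries in that order, and since 3′ tags may lie outside the deleted part, this checks nothing. The other 16 samples of the series (8 RNA-seq and 8 ATAC-seq) were not analysed here.

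The 4 tables held 11835449 to 16208689 unique molecular identifiers (UMIs, each standing for 1 captured transcript), and 7389 of 7722 barcodes were kept as cells. The libraries are labelled as CD8+ tumour-infiltrating cells, yet they also held macrophages and melanoma cells. The class of CD8 T cells had 1131, 1317, 1550 and 1022 cells (the wild-type library without and then with anti-PD-L1, followed by the knockout library without and then with it, the order used throughout). Macrophages numbered 202, 151, 368 and 156, and melanoma cells 928, 69, 189 and 50. The median UMIs per melanoma cell were 10203, 25574, 13820 and 31763. The summed level of the CD8 T cell markers was 5094 to 7037 CPM in CD8 T cells and 23.4 to 54.0 in melanoma cells, and the melanoma list stood at 17886 to 20957 in melanoma cells and 16.8 to 105 in CD8 T cells. The wild-type untreated library stands apart: it gave 618 of the 650 cells of 1 CD8 cluster and 419 of the 481 cells of another, while the other CD8 clusters drew at most 37 cells each from it, so that library and cluster cannot be told apart. The pairs of libraries had 1 to 10 barcode sequences in common.

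The chromosomal places, from RefSeq on GRCm38.p6, spread the members over 16 chromosomes. Psmb8 (chr17:34198195-34201454) and Psmb9 (chr17:34182030-34187330) lie in the class II region of the major histocompatibility complex beside Tap1 and Tap2, the peptide transporter genes. Psme1 (chr14:55578494-55581527) and Psme2 (chr14:55587440-55591101) are near neighbours, and Psmb10 is at chr8:105935728-105938392. A set of 14 members overlaps another gene, and reads of Psme2b, which also overlaps 9930111J21Rik1, cannot be separated with certainty from those of Psme2. The 250 bases before the transcription start are shown for the first 2 inducible subunits, each followed by the constitutive subunit it replaces, because the results turn on how these pairs differ. Sequences are from RefSeq on GRCm38.p6: Psmb8 chr17:34197945-34198194 on the plus strand, Psmb5 chr14:54617996-54618245 on the minus strand, Psmb9 chr17:34187331-34187580 on the minus strand and Psmb6 chr11:70525107-70525356 on the plus strand. They run 5′ to 3′ towards the gene, and capitals mark letters that match 1 of the 3 motifs below.
Psmb8: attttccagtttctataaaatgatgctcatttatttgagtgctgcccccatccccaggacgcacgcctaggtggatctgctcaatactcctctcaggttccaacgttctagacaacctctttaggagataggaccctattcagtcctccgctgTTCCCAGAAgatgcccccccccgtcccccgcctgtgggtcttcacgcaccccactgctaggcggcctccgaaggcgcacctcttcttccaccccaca
Psmb5: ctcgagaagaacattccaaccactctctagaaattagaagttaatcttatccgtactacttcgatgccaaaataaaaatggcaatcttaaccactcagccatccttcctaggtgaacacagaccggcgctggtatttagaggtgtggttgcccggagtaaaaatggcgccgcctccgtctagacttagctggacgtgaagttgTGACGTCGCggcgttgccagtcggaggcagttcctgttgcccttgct
Psmb9: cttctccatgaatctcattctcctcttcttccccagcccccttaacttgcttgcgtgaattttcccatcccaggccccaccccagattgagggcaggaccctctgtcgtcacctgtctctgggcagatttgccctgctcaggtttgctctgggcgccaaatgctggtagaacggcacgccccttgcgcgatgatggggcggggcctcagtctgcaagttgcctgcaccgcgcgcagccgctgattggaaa
Psmb6: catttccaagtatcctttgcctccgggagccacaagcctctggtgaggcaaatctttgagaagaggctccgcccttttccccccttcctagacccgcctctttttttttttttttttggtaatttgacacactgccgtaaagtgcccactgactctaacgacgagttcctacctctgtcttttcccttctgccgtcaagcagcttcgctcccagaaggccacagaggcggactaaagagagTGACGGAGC

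The motifs searched on both strands were GAAA followed after 2 bases by GAAA (letters bound by interferon regulatory factors), TTCNNNGAA (letters of the gamma-activated site of interferon gamma targets) and TGACNNNGC (letters of the antioxidant response element that the NRF factors bind, including NRF1, the factor that raises proteasome subunits when the proteasome is blocked). A promoter window was at hand for 42 of the 50 members, 45 windows in all. The gamma-activated site letters were in 7.02% of all 32851 windows and in 1 of the 6 immunoproteasome windows, that of Psmb8, where TTCCCAGAA stands 97 to 89 bases before the start. None of the 27 windows of constitutive subunits held them. The NRF-type letters were in 10.2% of all windows and in 4 of the 27 constitutive windows, those of Psmb5, Psmb6, Psmc6 and Psmd12, with TGACGTCGC 47 to 39 bases before the start of Psmb5 and TGACGGAGC in the last 9 bases of the Psmb6 window, whose end lies inside the annotated gene (chr11:70525324-70527858), unlike those of the other windows shown. No immunoproteasome window held the NRF-type letters. The interferon regulatory factor letters were in 2.98% of all windows, in none of the 6 immunoproteasome windows and in those of Psmb3 and Psmd4 among the constitutive ones. A match to letters describes the sequence and no binding.

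Psmb8, the inducible subunit with chymotrypsin-like activity, was the most abundant immunoproteasome transcript in immune cells and the member that differed most between immune and melanoma cells. All levels are in CPM over UMIs summed over the cells of a class. In CD8 T cells Psmb8 stood at 1265, 967, 1061 and 985 CPM. In macrophages Psmb8 stood at 1292, 1101, 1403 and 1522 CPM. Melanoma cells had 206, 265, 425 and 534 CPM. Every immune level was above every melanoma level, and within melanoma cells the knockout libraries were the highest. Its constitutive partner Psmb5 was at 395, 260.0, 316 and 302 CPM in CD8 T cells and at 228 to 231 CPM in all 4 macrophage sums. Melanoma cells had 332, 259, 252 and 216 CPM of Psmb5, so the order of the libraries ran against that of Psmb8.

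Psmb9, the inducible subunit that takes the place of the caspase-like Psmb6, had 438, 335, 349 and 319.8 CPM in CD8 T cells. Macrophages had 416, 405, 472 and 505 CPM, and melanoma cells 165, 197, 253 and 319 CPM. The highest melanoma library lay level with the lowest CD8 library, so these groups touched. Psmb6 was at 533, 320.2, 396 and 363 CPM in CD8 T cells, 657, 463, 537 and 545 in macrophages, and 499, 408, 390.2 and 345 in melanoma cells. Those 3 ranges overlapped.

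Psmb10, the inducible subunit with trypsin-like activity, was placed differently. It was lowest in CD8 T cells, at 223, 172, 179 and 174 CPM, and highest in macrophages, at 436, 359.5, 394 and 520.2 CPM. Melanoma cells lay between, at 282, 283, 269.9 and 291 CPM, with no overlap between any 2 of the 3 cell types. Psmb7, the subunit it replaces, was at 337, 194, 235 and 218 CPM in CD8 T cells and at 178, 153, 160 and 177 CPM in macrophages. Melanoma cells had 386, 315, 290.2 and 289.8 CPM of Psmb7, the highest mean of the 3 cell types.

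The PA28 genes followed Psmb8 more closely than Psmb10 did. Psme1 stood at 537, 469.6, 474 and 460.3 CPM in CD8 T cells, 602, 496, 519.5 and 585 in macrophages, and 254, 254, 258 and 293 in melanoma cells. Psme2 stood at 281, 276, 269 and 285 CPM in CD8 T cells, 337, 389.5, 401 and 499.5 in macrophages, and 167, 201, 237 and 226 in melanoma cells. For both genes every immune level was above every melanoma level. Over the 12 sums (3 cell types in 4 libraries, so points share libraries) Pearson's r of log2 CPM with Psmb8 was 0.97 for Psmb9, 0.96 for Psme1, 0.88 for Psme2 and 0.16 for Psmb10.

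**Figure D1:**
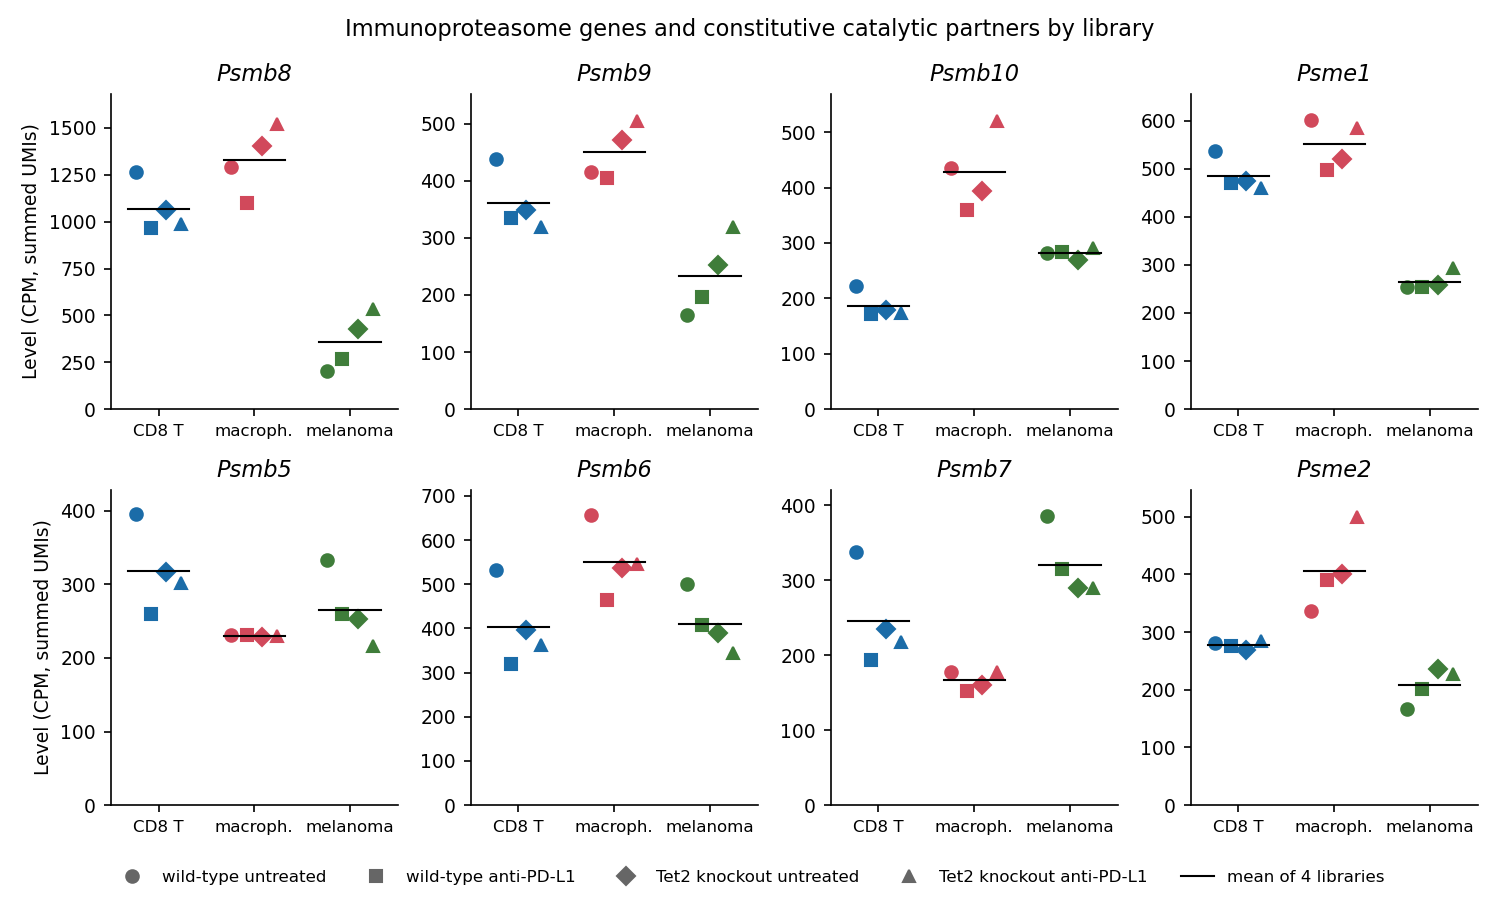
Level in CPM (vertical axes, from 0) of the 5 immunoproteasome genes and the 3 constitutive catalytic subunits in CD8 T cells, macrophages and melanoma cells. Each symbol is 1 library and each line the mean of 4. Psmb8 in melanoma cells runs from 206 to 534 CPM, below all 8 immune sums, while Psmb10 is lowest in CD8 T cells.

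The inducible share of the catalytic pairs (UMIs of Psmb8, Psmb9 and Psmb10 as a percentage of those plus Psmb5, Psmb6 and Psmb7) needs no scaling between libraries. In CD8 T cells it was 60.3%, 65.5%, 62.6% and 62.6%, a mean of 62.8% ± 2.14 (SD, n = 4 libraries). In macrophages it was 66.8%, 68.8%, 71.1% and 72.8%, a mean of 69.8% ± 2.62. In melanoma cells it was 34.9%, 43.1%, 50.4% and 57.4%, a mean of 46.4% ± 9.65, with exact binomial 95% intervals of 34.2 to 35.6%, 41.4 to 44.8%, 49.1 to 51.7% and 55.6 to 59.1% that cover counting error only. The share was below that of both immune classes in each of the 4 melanoma sums, and the melanoma intervals did not overlap each other. CD8 T cells exceeded melanoma cells by 16.3 ± 9.30 percentage points within libraries, the difference of CD8 T cells minus macrophages was -7.06 ± 2.97 points, and macrophages exceeded melanoma cells by 23.4 ± 7.04 points. Each difference had the same sign in 4 of 4 libraries, and the exact two-sided sign-flip permutation test gave p = 0.13 for each of the 3, the smallest value that 4 pairs allow.

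Within the pairs, the ratio of Psmb8 to Psmb5 UMIs was 3.20, 3.72, 3.36 and 3.27 in CD8 T cells, 5.60, 4.76, 6.15 and 6.62 in macrophages, and 0.619, 1.02, 1.68 and 2.47 in melanoma cells. The ratio of Psmb9 to Psmb6 was 0.821 to 1.04 in CD8 T cells, 0.633 to 0.925 in macrophages and 0.330 to 0.927 in melanoma cells. The ratio of Psmb10 to Psmb7 was 0.660 to 0.884 in CD8 T cells, 2.36 to 2.93 in macrophages and 0.730 to 1.00 in melanoma cells. The pair in which CD8 T cells stood above melanoma cells in every library was thus Psmb8 with Psmb5, whereas for Psmb10 with Psmb7 melanoma cells had the higher ratio in each of the 4 libraries. A 3′ tag count does not scale with transcript length, but genes can differ in how well they are captured, so these ratios were compared between cell types and not read as subunit proportions.

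**Figure D2:**
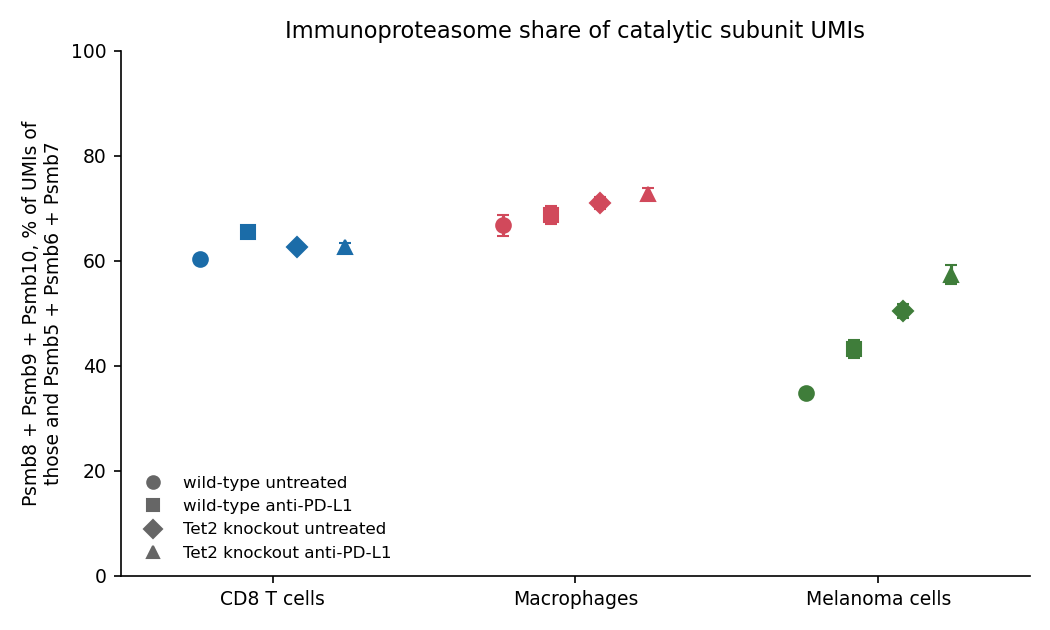
Inducible share of catalytic subunit UMIs (vertical axis, percent) in CD8 T cells, macrophages and melanoma cells. Each symbol is 1 library and bars are exact 95% binomial intervals. Melanoma cells range from 34.9% to 57.4%, all below the 60.3% of the lowest immune sum.

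The 3 cell types were then compared across all genes with edgeR, on UMI sums per library and cell type with the library as a block, and scaled with TMM, which sets most genes equal between sums. A log2 difference below is on this scale, followed by its standard error (SE) and the p adjusted over all genes tested. The SE was derived from the test, as the absolute log2 difference divided by the square root of the quasi-likelihood F statistic. Of the 50 members, 48 passed the filter on low counts. Psma8 and Psmb11, with 5 and 10 UMIs in all kept cells, did not. The scaling matters for small differences: with library totals in its place the median of all genes moved from -0.02 to -0.40 for CD8 T cells against melanoma cells, from 0.06 to 0.18 for CD8 T cells against macrophages and from -0.08 to -0.60 for macrophages against melanoma cells.

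In CD8 T cells 4 of the 5 immunoproteasome genes were higher than in melanoma cells. The members called numbered 33 of 48 (29 higher and 4 lower), beside 72.9% of all 10420 genes tested, of which 35.3% were higher and 37.6% lower. Psmb8 was higher by 2.06 (SE 0.21, adjusted p = 6.69e-06), Psme1 by 1.26 (SE 0.10, adjusted p = 7.51e-10), Psmb9 by 1.06 (SE 0.15, adjusted p = 8.73e-06) and Psme2 by 0.82 (SE 0.11, adjusted p = 1.52e-06). All 4 were higher in 4 of 4 libraries and were called under all 11 alternatives run. Psmb10 differed by -0.21 (SE 0.11, adjusted p = 0.101) and was called lower in CD8 T cells under 2 of 11 alternatives, with library totals (-0.60, adjusted p = 9.48e-05) and with a stricter cell filter (adjusted p = 0.043), over a range of adjusted p from 9.48e-05 to 0.432. Of the 31 constitutive subunits 19 were higher and 2 lower (median 0.31, all genes -0.02).

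The alpha ring was higher in CD8 T cells in 7 of 7 genes, led by Psma4 at 1.08 (SE 0.17). The noncatalytic beta ring was higher in 4 of 4, led by Psmb1 at 0.94 (SE 0.09), and Psmb5 and Psmb6 were higher by 0.65 and 0.35, while Psmb7 stood at -0.01 (adjusted p = 0.929). Of the 6 ATPases Psmc6 was higher and Psmc2 lower (-0.29), and of the 11 base and lid genes 5 were higher and Psmd7 lower (-0.31). The members lowest in CD8 T cells were Psme4, the PA200 activator, at -0.68 (SE 0.18), and Psmg4, an assembly chaperone, at -0.41 (SE 0.11). With library totals the split of called members was 12 higher and 12 lower, and Psmb6, Psma3, Psma5, Psmb4, Psmc6, Psmd4 and Psmg2 changed sign, so the direction of the constitutive particle rests on the scaling.

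Against macrophages, CD8 T cells had less of 4 of the 5 immunoproteasome genes. The members called were 27 of 48 (15 higher and 12 lower), beside 61.6% of all genes (31.5% higher and 30.1% lower). The split was 20 higher and 7 lower with library totals, and 9 higher and 15 lower without the wild-type untreated library. Psmb10 was lower by -1.32 (SE 0.11, adjusted p = 6.87e-09) and Psme2 by -0.67 (SE 0.11, adjusted p = 3.16e-05), each lower in 4 of 4 libraries and called under all 11 alternatives. Psmb9 (-0.43, SE 0.15, adjusted p = 0.0194) lost its call in 5 of 11 alternatives, up to an adjusted p of 0.12, among them those without the wild-type anti-PD-L1, the knockout untreated (0.12) and the knockout anti-PD-L1 library. Psme1 (-0.31, SE 0.10, adjusted p = 0.00987) lost its call in 4, up to 0.121, among them those without either knockout library. Psmb8 stood at -0.41 (SE 0.20, adjusted p = 0.105) and was called without the wild-type untreated library (adjusted p = 0.00465) and with no filter on low counts (adjusted p = 0.0035). Leaving out the knockout untreated library left 15 members called.

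The constitutive catalytic subunits went in different directions between the immune cell types. Psmb6 was lower in CD8 T cells by -0.59 (SE 0.10, adjusted p = 5.15e-05), while Psmb5 and Psmb7 were higher by 0.31 (adjusted p = 0.0276) and 0.39 (adjusted p = 0.00705). The last 2 were not called without the wild-type untreated library (adjusted p = 0.198 and 0.11). Of the 31 constitutive subunits 9 were higher and 4 lower (median 0.11, all genes 0.06). The members highest in CD8 T cells relative to macrophages were Psmc3ip at 1.44 (SE 0.23), the chaperones Psmg2 at 1.08 (SE 0.20), Psmg1 at 0.93 (SE 0.19) and Psmd5 at 0.81 (SE 0.21), and Psme3, the nuclear PA28 gamma activator, at 0.88 (SE 0.15). Besides Psmb10 and Psme2, the lowest were Psme2b at -0.84 (SE 0.16) and Psmd10, the chaperone also called gankyrin, at -0.61 (SE 0.15).

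Macrophages exceeded melanoma cells in all 5 immunoproteasome genes. The members called were 27 of 48 (21 higher and 6 lower), beside 65.4% of all genes (31.8% higher and 33.6% lower). Psmb8 was higher by 2.47 (SE 0.22, adjusted p = 2.34e-06), Psme1 by 1.57 (SE 0.10, adjusted p = 7.67e-11), Psmb9 by 1.49 (SE 0.15, adjusted p = 2.95e-07), Psme2 by 1.49 (SE 0.11, adjusted p = 1.03e-09) and Psmb10 by 1.12 (SE 0.11, adjusted p = 6.84e-08). All 5 were higher in 4 of 4 libraries and called under all 11 alternatives. The retrocopy Psme2b was higher by 1.47. Psmb6 was higher by 0.94, Psmb5 by 0.33, and Psmb7 lower by -0.40 (SE 0.12, adjusted p = 0.00569). Psmc3ip (-1.32), Psmg2 (-0.70), the lid subunit Psmd7 (-0.44) and Psmd11 (-0.38) were the other members lowest in macrophages. Of the constitutive subunits 14 were higher and 4 lower (median 0.26, all genes -0.08), and with library totals the split of called members was 11 higher and 24 lower, with Psmb5, Psmb3, Psma1, Psma5, Psmd4 and Psmd13 changing sign.

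**Figure D3:**
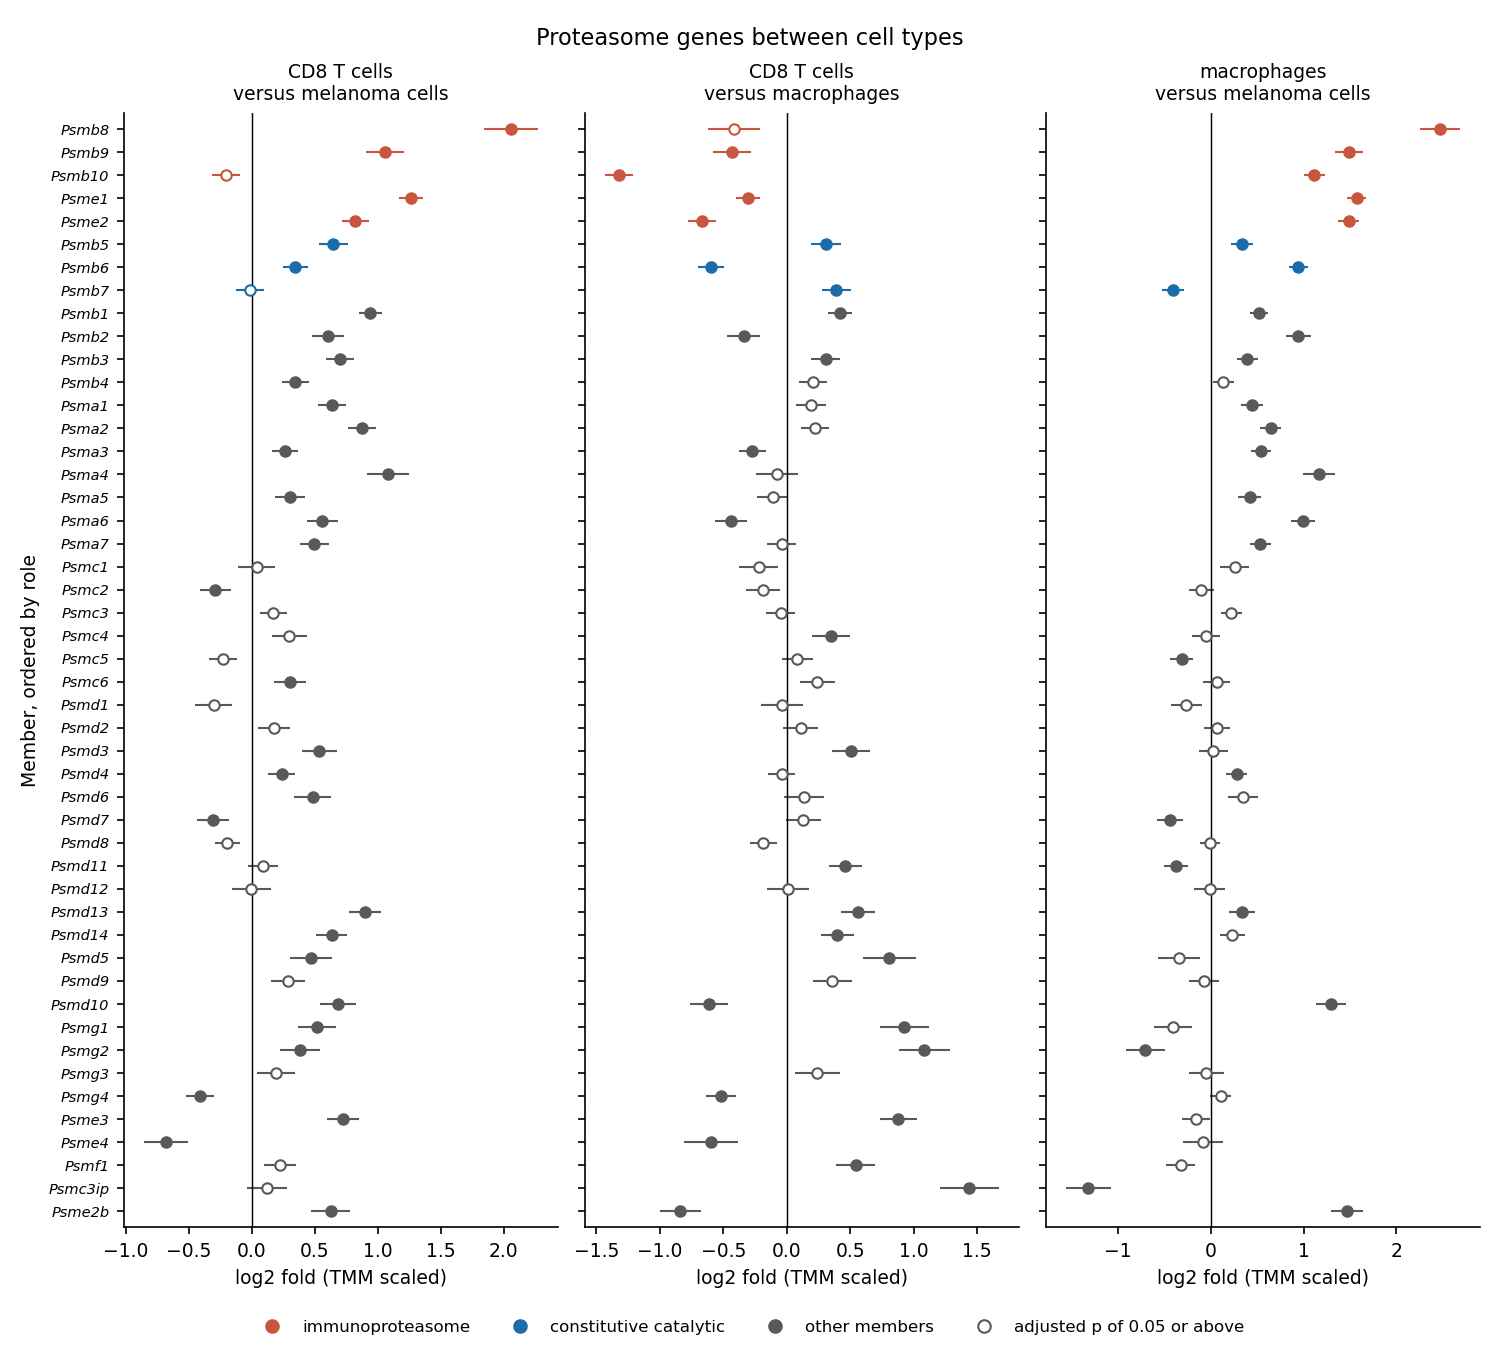
TMM-scaled log2 difference between cell types (horizontal axes) for the 48 members tested, ordered by role; bars are 1 SE and filled points have an adjusted p under 0.05. Psmb8 is the member farthest to the right in both comparisons with melanoma cells (2.06 and 2.47), and Psmb10 the farthest to the left in CD8 T cells against macrophages (-1.32).

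Other genes of the pathway gave the setting. The counts below stand beside large shares of all genes called. In CD8 T cells against melanoma cells these were 35.3% higher and 37.6% lower. Against macrophages they were 31.5% and 30.1%, and in macrophages against melanoma cells 31.8% and 33.6%. Of the 12 class I presentation genes 11 were higher and 1 lower in macrophages than in melanoma cells, led by H2-K1 (2.01), Tap1 (2.00), H2-D1 (1.91) and Tapbp (1.37), the transporter and chaperone genes of peptide loading among them. In CD8 T cells 8 were higher and 1 lower than in melanoma cells, led by Tap1 (1.47), and 1 was higher and 8 lower than in macrophages, where B2m stood at -1.33. The interferon gamma response list split 15 higher and 4 lower of 21 in macrophages against melanoma cells, and 5 higher and 14 lower in CD8 T cells against melanoma cells. Its genes Cxcl10 (-5.61) and Cxcl9 (-5.45) were among those lower in CD8 T cells, although 4 of the 5 immunoproteasome genes were higher there. Against macrophages 1 was higher and 19 lower in CD8 T cells, among them Cxcl9 (-9.34).

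Of the transcription genes of the proteasome, 2 of 3 tested were lower in CD8 T cells than in melanoma cells and 3 of 3 lower than in macrophages. Nfe2l1, which encodes NRF1, stood at -1.92 (SE 0.19, adjusted p = 3.06e-08) against melanoma cells and -1.56 (SE 0.23) against macrophages. Nfe2l2 stood at -1.58 and -2.83, and the protease gene Ddi2, whose product activates NRF1, at -1.33 against macrophages. Of the 7 partner proteins outside the name pattern, Uchl5, a deubiquitinase of the regulatory particle, was higher in CD8 T cells than in melanoma cells by 1.67 (SE 0.21), and Zfand5 (-0.76), Shfm1 (-0.73) and Adrm1 (-0.43) were lower. Pomp, the assembly factor of the core particle, was higher by 1.03 (SE 0.10) in macrophages than in melanoma cells. Of the 12 genes of ubiquitin supply and delivery 6 were higher and 4 lower in CD8 T cells against melanoma cells, among them Nploc4 (-1.25) and Ubqln2 (1.21). The split was 4 and 1 against macrophages, and 4 and 3 in macrophages against melanoma cells, where Rad23b stood at -0.95. Of all genes, 72.9%, 61.6% and 65.4% were called in these contrasts, in the same order.

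Within macrophages, cells with Cxcl9 transcripts had more of all 5 immunoproteasome genes. Cxcl9 is a chemokine gene that interferon gamma induces, and cells were divided by at least 1 Cxcl9 UMI among 2000 drawn from each cell, which gave 88, 51, 195 and 90 positive and 114, 100, 173 and 66 negative cells. The cut lies inside a continuous range, since 42, 19, 57 and 25 of the positive cells had a single UMI. Psmb8 was at 1452, 1355, 1548 and 1636 CPM in positive cells and at 1163, 936, 1234 and 1357 CPM in negative cells. Psmb9 was at 438, 513, 557 and 563 CPM against 399, 336, 373 and 419.9 CPM. Psme2 was at 394, 484, 465 and 561 CPM against 291, 328, 326 and 411 CPM. Each was higher in the positive cells of all 4 libraries, although for Psmb8 and Psme2 the 2 sets of values overlapped.

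Of the 46 members tested 8 were called (7 higher and 1 lower), beside 8.73% of the 5416 genes tested (4.08% higher and 4.65% lower). Psme2 was higher by 0.51 (SE 0.08, adjusted p = 5.85e-05), Psmb9 by 0.48 (SE 0.09, adjusted p = 0.000315), Psmb10 by 0.41 (SE 0.08, adjusted p = 0.00139), Psmb8 by 0.38 (SE 0.07, adjusted p = 0.000183) and Psme1 by 0.33 (SE 0.08, adjusted p = 0.00468). The alpha subunit Psma4 (0.39) and the chaperone Psmd10 (0.59) were also higher, and the lid subunit Psmd8 (-0.32) was lower. Psmb5 (-0.06), Psmb6 (0.12) and Psmb7 (-0.26, adjusted p = 0.194) were not called, and of the 31 constitutive subunits 1 was higher and 1 lower (median 0.02, all genes -0.01). In the same cells Gbp4 was higher by 0.78 (SE 0.12), Tapbp by 0.63 (SE 0.10) and Tap1 by 0.55 (SE 0.11), and 9 of the 21 interferon genes and 5 of the 12 class I genes were called, all of them higher, with Cxcl9 itself among the 9 because the division used it. Positive cells were deeper, with medians of 3144, 8149, 5276 and 9906 UMIs against 2886, 5819, 4709 and 9222 in negative cells, and the part of depth in the result was not tested beyond drawing 2000 UMIs per cell for the division. DESeq2 called 3 of the 5 immunoproteasome genes and not Psmb10 (adjusted p = 0.0522) or Psme1 (adjusted p = 0.113). Without the library block none was called by edgeR, and all 5 had an unadjusted p under 0.05.

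In mitotic CD8 T cells Psmb9 was higher, and Psme1 and Psme2 lower, than in CD8 T cells with no mitosis transcript. Mitotic cells had at least 3 UMIs of 16 mitosis genes among 2000 drawn (649, 278, 579 and 267 cells) and were set against cells with none (167, 794, 622 and 528). Between 227 and 349 cells per library with 1 or 2 such UMIs were left out, and 44 to 127 stood at the cut of 3. Psmb9 was at 457, 413, 351 and 395 CPM in mitotic cells and at 375, 289, 335 and 263 CPM in the others, higher in 4 of 4 libraries. Psme1 went the other way in all 4 libraries, at 515, 441, 434 and 416 CPM against 623, 491, 530.1 and 483 CPM, and the 2 sets of values overlapped. Psme2 did so too, at 265, 257, 249.6 and 249.7 CPM against 331, 289, 307 and 307 CPM, with no overlap between the classes. Levels also differed between CD8 clusters, here without the wild-type untreated library. Psme2 was at 341, 358 and 360 CPM in 1 cluster low in mitosis genes and at 262, 228 and 222 CPM in another. It was at 258, 283 and 252 CPM in a mitotic cluster. Psmb9 stood at 264, 287 and 191, at 325, 378 and 323, and at 453, 411 and 422 CPM there. Depth in these clusters was 0.740, 0.788 and 1.34 of the library median. The part of cluster or depth was not tested.

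The test called 13 of 48 members (8 higher and 5 lower), beside 28.3% of the 8737 genes tested (13% higher and 15.3% lower). Psmb9 was higher by 0.31 (SE 0.07, adjusted p = 0.003), Psmb6 by 0.25 (SE 0.06, adjusted p = 0.0018) and Psmb7 by 0.18 (SE 0.07, adjusted p = 0.0476). The largest rise was that of Psmc3ip, at 1.10 (SE 0.17, adjusted p = 6.58e-06), followed by the chaperones Psmg1 (0.37) and Psmg3 (0.36), the ATPase Psmc1 (0.34) and Psmb9. Psme2b (-0.52), Psme2 (-0.33, SE 0.06, adjusted p = 0.000163), Psme1 (-0.30, SE 0.06, adjusted p = 0.000154), the ubiquitin receptor Psmd4 (-0.23) and Psmb1 (-0.15) were lower. Psmb8 stood at 0.03 (adjusted p = 0.755), Psmb10 at -0.18 (adjusted p = 0.0647) and Psmb5 at 0.02 (adjusted p = 0.861). None of the 19 interferon genes tested was higher and 12 were lower, among them Ifit1 (-1.95) and Ifit3 (-1.95), and of the class I genes 6 of 12 were lower, led by B2m (-0.38). DESeq2 called 6 members, and edgeR without the library block 1. Psmb9, Psme1 and Psme2 were called by DESeq2 and in every fit that left out 1 library, but not without the block (adjusted p = 0.192, 0.143 and 0.0602).

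The comparisons of genotype and of treatment rest on 1 library per group, so they have no replicate check and no test. Differences below are log2 ratios of CPM with exact 95% intervals for counting error, and a ratio past 1.5-fold at a mean of at least 20 CPM is counted. The comparisons share libraries (the wild-type untreated library serves both for the genotype and for the treatment), so their values are given side by side and not as support for each other.

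In melanoma cells of the knockout libraries Psmb8 and Psmb9 stood higher than in those of the wild-type libraries, while only 1 of the 31 constitutive subunits untreated and 2 with anti-PD-L1 had a ratio above 0. Without treatment, melanoma cells of the knockout library had 425 CPM of Psmb8 against 206 in the wild-type library, a log2 ratio of 1.05 (0.95 to 1.15). They had 253 CPM of Psmb9 against 165, a ratio of 0.62 (0.49 to 0.74). Psme2 had a ratio of 0.50 (0.37 to 0.63), Psme1 of 0.02 (-0.10 to 0.14) and Psmb10 of -0.06 (-0.18 to 0.05). Psmb5, Psmb6 and Psmb7 lay at -0.40, -0.36 and -0.41. Past 1.5-fold stood 2 of the 5 immunoproteasome genes, both higher, and 5 of the 31 constitutive subunits, all lower, beside 10.7% of 5507 genes (6.37% higher and 4.34% lower). The median of the constitutive subunits was -0.43 and that of all genes 0.00. The members with the lowest ratios were the chaperone Psmg1 at -0.77, the lid subunit Psmd6 at -0.76 and the ATPase Psmc4 at -0.70, and Psme2b stood at 0.79.

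With anti-PD-L1 the ratio of knockout to wild-type library was 1.01 (0.85 to 1.17) for Psmb8, from 534 against 265 CPM, and 0.70 (0.50 to 0.89) for Psmb9, from 319 against 197 CPM. Psme2 (0.17), Psme1 (0.20) and Psmb10 (0.04) lay within 1.5-fold, as did Psmb5 (-0.26), Psmb6 (-0.24) and Psmb7 (-0.12). Again 2 of 5 immunoproteasome genes were past 1.5-fold and higher, and 3 of 31 constitutive subunits were lower, beside 15.5% of genes (6.7% higher and 8.77% lower), with a constitutive median of -0.32 and one of -0.02 over all genes. Psmc3ip (-0.91), Psmc4 (-0.85) and Psma4 (-0.78) were the lowest members. Psmb9 in the untreated pair fell within 1.5-fold with TMM factors in place of library totals (0.52).

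Anti-PD-L1 against no treatment gave smaller ratios for the inducible subunits in melanoma cells. Psmb8 was at 0.37 (0.22 to 0.51) with wild-type T cells and 0.33 (0.20 to 0.46) with knockout T cells, and Psmb9 at 0.26 (0.09 to 0.42) and 0.34 (0.17 to 0.50). No immunoproteasome gene passed 1.5-fold in either, beside 6.28% of all genes (3.52% higher and 2.76% lower) and 7.39% (2.71% higher and 4.68% lower). In the wild-type pair 2 of 48 members did, Psme2b at 1.12 and Psmd6 at -0.80. This count was 10 in melanoma cells with no marker UMI of the other classes (703 untreated and 45 with anti-PD-L1), 7 with cells weighted equally and 0 with the other barcode listing. In those marker-free cells the wild-type treatment ratios of Psmb8 and Psmb9 turned to -0.05 and -0.07, while the genotype ratios with anti-PD-L1 were 1.45 and 1.23. In the knockout pair 8 did, 1 higher (Psme2b, 0.67) and 7 lower, with Psmg3 (-0.86), Psma4 (-0.76) and Psmc3ip (-0.66) the lowest.

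Other values moved with these levels in melanoma cells. Psmb8 UMIs were present in 25.3%, 33.3%, 47.1% and 64.0% of melanoma cells when each was reduced to 2000 UMIs, and in 54.8%, 84.1%, 87.8% and 92.0% at full depth. The reduced shares of Psmb5 were 42.6%, 31.9%, 38.6% and 32%. Genes of other cell types give a floor for such shares. Cd3d, a T cell gene, had a UMI in 2.69%, 1.45%, 3.70% and 0% of the same cells (0 of 50 cells in the last, which allows up to 7.11%). C1qb of macrophages had a UMI in 1.94%, 2.90%, 0.529% and 2.00%. Whether these UMIs came from free RNA or from doublets was not tested. The macrophage markers summed to 729 to 1056 CPM in melanoma cells, of which Apoe made 716 to 1007, while Csf1r, Adgre1 and Fcgr1 were each at 0 to 1.27 CPM. The class I genes H2-K1 (491, 808, 896 and 957 CPM) and B2m (4389, 5961, 7123 and 7896 CPM) had their lowest level in the same library as Psmb8. At a mean of at least 20 CPM were 11 class I genes and 16 interferon genes. For knockout over wild-type untreated, 6 and 8 of these passed 1.5-fold, all of them higher, beside 6.37% of all genes higher and 4.34% lower. With anti-PD-L1 2 class I genes and 4 interferon genes were higher and 1 interferon gene lower, beside 6.7% of all genes higher and 8.77% lower. Ifng in CD8 T cells was at 189, 297, 207 and 426 CPM. Its lowest and highest libraries were those of Psmb8 in melanoma cells, and the libraries between stood in the reverse order. A link between the levels was not tested.

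Melanoma cells also differed between libraries in number, in depth and in cluster. Among cells of 10000 to 40000 UMIs (486, 37, 132 and 39 cells) the inducible share was 35.8%, 49.7%, 50.6% and 57.1%, and Psmb8 was at 219, 331, 438 and 559 CPM. In this range, examined after the data were seen, Psmb8 passed 1.5-fold for anti-PD-L1 over untreated wild-type (0.59), its genotype ratios were 1.00 untreated and 0.76 with anti-PD-L1, and the Psmb9 genotype ratio untreated fell within 1.5-fold (0.54). A melanoma cluster of 11 cells is left aside here. In the larger melanoma cluster (615, 50, 100 and 35 cells) the share was 36.3%, 43.3%, 50.9% and 58.3%, and in the smaller (313, 9, 88 and 15 cells) 30.5%, 42.3%, 49.7% and 55.8%. The order of the 4 libraries in this share was thus the same within this depth range and within both clusters. Psmb8 itself stood at 203, 242, 418 and 492 CPM in the larger cluster and at 213, 422, 436 and 633 CPM in the smaller. In the smaller cluster the wild-type anti-PD-L1 level (9 cells) thus lay near that of the knockout untreated library. The range did not equalise depth, as the median UMIs inside it were 13956, 25534, 18436 and 28560. Within it the wild-type anti-PD-L1 share (49.7%) also lay close to that of the knockout untreated library (50.6%). The part of depth in these values was not tested further. No melanoma cell held more than 9.25% of its library's Psmb8 UMIs.

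**Figure D4:**
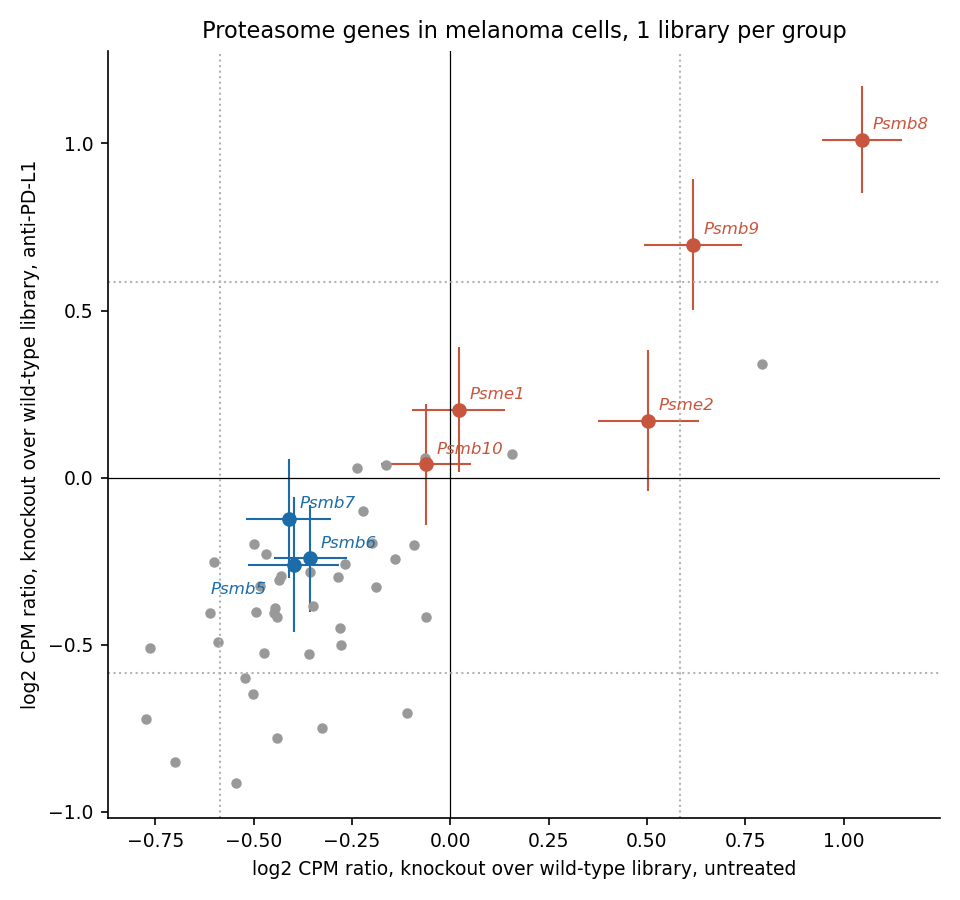
Log2 ratio of CPM of knockout over wild-type library in melanoma cells, untreated (horizontal) against anti-PD-L1 (vertical), for members at a mean of at least 20 CPM. Red points are immunoproteasome genes and blue points Psmb5, Psmb6 and Psmb7, with exact 95% counting intervals; grey points are other members, and dotted lines mark 1.5-fold. Psmb8 (1.05 and 1.01) and Psmb9 (0.62 and 0.70) are past 1.5-fold on both axes, and the grey point at 0.79 and 0.34 is Psme2b.

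In CD8 T cells constitutive subunits passed 1.5-fold between libraries, and no inducible subunit did. Summed over the 31 constitutive subunits the level was 9695, 6245, 7205 and 7082 CPM, highest in the wild-type untreated library, and summed over the 5 immunoproteasome genes 2743, 2219, 2332 and 2224 CPM. Anti-PD-L1 against untreated wild-type cells left 24 of 47 members past 1.5-fold, all lower, beside 31.4% of 4621 genes (20.3% lower), and 19 of these were constitutive subunits. Psmd6 stood at -1.24 (65.4 against 155 CPM), Psmd7 at -1.20 (96.7 against 222 CPM) and Psmd12 at -1.19 (63.6 against 145 CPM). Psmb7, Psmb6 and Psmb5 were at -0.80, -0.74 and -0.60, and Psmb9, Psmb8, Psmb10, Psme1 and Psme2 at -0.39, -0.39, -0.38, -0.19 and -0.02.

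Knockout against wild-type untreated cells, which shares that library, left 11 of 47 members past 1.5-fold, all lower, beside 14.7% of genes (7.77% higher and 6.9% lower). The lowest were Psmd12 (-0.90), Psmd6 (-0.87) and Psmd1 (-0.87), and the immunoproteasome genes lay between -0.33 for Psmb9 and -0.06 for Psme2. In the comparisons without the wild-type untreated library few members passed: none of 47 for knockout against wild-type with anti-PD-L1 (2.53% of genes), where ratios ran from -0.40 for Psmg1 to 0.43 for Psmc6, and 1 for anti-PD-L1 against untreated knockout cells (3.96% of genes), Psmg1 at -0.64. Psmb8 stood at 0.03 (-0.02 to 0.07) and -0.11 (-0.15 to -0.06) in these 2.

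The share of mitotic cells was highest in the wild-type untreated library, so the sums were also taken within each mitotic class. The constitutive subunits summed to 9831, 6495, 7150 and 7184 CPM in mitotic cells and to 8832, 5946, 7096 and 6942 CPM in cells with no mitosis UMI. The immunoproteasome genes summed to 2701, 2294, 2255 and 2280 CPM and to 2876, 2162, 2390 and 2133 CPM. The wild-type untreated library was the highest in each of the 4 sets. CD8 T cells of that library had a median of 3750 UMIs, against 5443, 4413 and 6849 in the others.

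**Figure D5:**
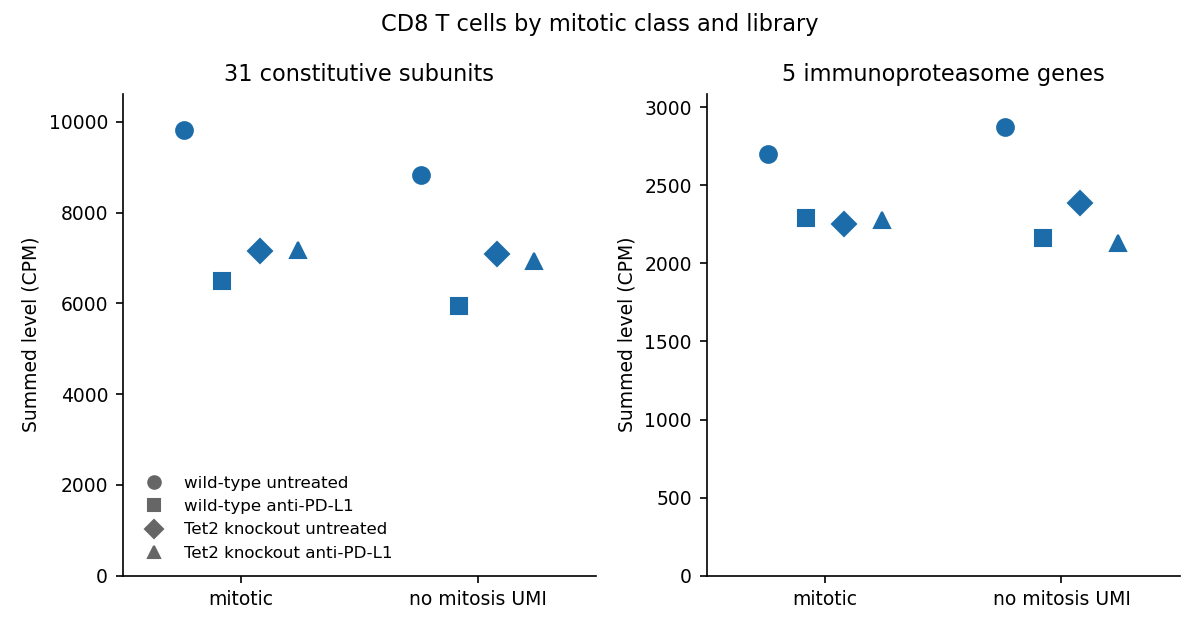
Summed level in CPM (vertical axes, from 0) of the 31 constitutive subunits and of the 5 immunoproteasome genes in mitotic CD8 T cells and in those with no mitosis UMI; each symbol is 1 library. The wild-type untreated library is the highest in every set, at 9831 and 8832 CPM for the constitutive subunits.

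No immunoproteasome gene passed 1.5-fold between macrophages in any of the 4 comparisons, over all macrophages or in those free of other classes' markers. The CD8 T cell markers summed to 326 to 682 CPM in macrophages and the melanoma markers to 63.3 to 277 CPM. In macrophages with no marker UMI of the other classes (83, 78, 222 and 100 cells), 11 and 4 members passed 1.5-fold for the genotype untreated and with anti-PD-L1, against 7 and 2 over all macrophages, and 14 and 1 for the treatment of wild-type and knockout, against 9 and 2. The summed immunoproteasome level was 3082, 2752, 3190 and 3631 CPM and the constitutive level 7479, 5913, 6464 and 6883 CPM. The largest ratios of the immunoproteasome genes were between knockout and wild-type libraries with anti-PD-L1. There Psmb10 stood at 0.53 (0.36 to 0.71) and Psmb8 at 0.47 (0.37 to 0.57), and all 5 genes were above 0. So were 26 of the 31 constitutive subunits. The median was 0.36 for the 5 genes, 0.22 for the constitutive subunits and 0.07 for all genes. In that comparison 2 of 44 members passed 1.5-fold (13.2% of 4655 genes, 7.65% higher and 5.52% lower), both higher, Psme2b at 0.82 and Psmd12 at 0.70. In the untreated libraries 7 passed (2 higher and 5 lower, 24.2% of genes), with Psme4 at 1.37 (0.14 to 2.89) and Psmg3 at -0.93. Anti-PD-L1 against no treatment left 9 in wild-type libraries (2 higher and 7 lower, 29.1% of genes). Psme4 was at 1.49 (27 against 6 UMIs), Psme2b at 0.70, Psmc4 at -0.87, Psmc5 at -0.81 and Psmd12 at -0.79. Both ratios of Psme4 rest on the same 6 UMIs of the wild-type untreated library. In knockout libraries the treatment left 2 (9.86% of genes, 5.89% higher and 3.97% lower), both higher, Psme2b at 0.80 and Psmd6 at 0.59.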

How the data were processed

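The deposited single-cell tables hold UMI counts per gene and barcode, which the authors made from 10x Chromium 3′ libraries, per the labels' protocols. The submitters' processing notes name the mm10 build and, for the whole series, HISAT2, HTSeq, DESeq2, Bowtie2, bedtools, Genrich 0.5 and Trim Galore 0.5.0. Which aligner and counter made these tables is not given in the sources used here. Each table lists its barcodes in 2 forms, and the form with 2 hyphens was used.

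Cells had at least 500 genes, at most 10% mitochondrial and at most 1% globin UMIs; the last limit was added after the data were seen and removed 9 barcodes. Clustering (scanpy 1.11.5, 2000 variable genes, 30 components, 15 neighbours, resolution 1.0) left out 553 member, pathway and interferon genes. A cluster was named when its own marker list reached 0.3 of the best cluster's level and was the highest of the lineage lists, with Cd8a and Cd8b1 at 0.5 for CD8 T cells. This replaced the planned rule and was set after seeing the data. The planned rule compared lists by their level relative to the best cluster, and there trace erythroid and endothelial signals led in some clusters. In the larger melanoma cluster the erythroid list stood at 0.647 on that scale and the melanoma list at 0.396. The mast cell list led in a cluster named CD8 T cells (1 against 0.688). No doublet caller was run, and doublets were not removed.

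UMIs were summed per library and class and tested with edgeR 4.0.16 (quasi-likelihood, TMM, library as a block, Benjamini-Hochberg adjustment, threshold 0.05; R 4.3.3). The block takes up differences between libraries in level, so p-values measure how differences between classes within a library varied over the 4 libraries. These libraries differ in genotype and treatment. The 3 contrasts of cell types came from 1 fit of all 12 sums. Each of their SEs and p-values therefore also carries the spread of the third cell type. The block rests on both classes of a pair coming from the same library. Intervals are exact and cover counting error only. Scripts were tested on simulated data. Alternatives were DESeq2 1.42.0, no low-count filter, library totals, no block, each library left out, the other barcode listing, a stricter cell filter, cells free of other classes' markers, and other fold limits. Named are the 5 immunoproteasome genes with Psmb5, Psmb6 and Psmb7, the 5 called members with the largest log2 difference in each direction (3 for ratios between libraries) and up to 4 genes of each pathway list. Members and lists were chosen with earlier results of these data known.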

Additional observations from a re-analysis of the deposited data

Results flagged for a closer look

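Psmd12, a lid subunit, stood at a log2 ratio of 0.70 in macrophages and -0.60 in melanoma cells for the knockout over the wild-type library with anti-PD-L1, so the cell types moved in opposite directions. Psmd6, another lid subunit, stood at -0.68 for anti-PD-L1 over untreated in the macrophages of the wild-type libraries and at 0.59 in those of the knockout libraries. Each value compares 1 library with 1 library, and the difference was not tested in either case.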

How the results depend on the processing

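With library totals in place of TMM, the log2 difference between CD8 T cells and melanoma cells turned to -0.043 for Psmb6, -0.15 for Psmd4, -0.044 for Psmb4, -0.084 for Psmc6, -0.0023 for Psmg2, -0.12 for Psma3 and -0.082 for Psma5, and that between macrophages and melanoma cells to -0.18 for Psmb5, -0.24 for Psmd4, -0.18 for Psmd13, -0.072 for Psma1, -0.10 for Psma5 and -0.13 for Psmb3. In melanoma cells with no marker UMI of the other classes, Psmg2 turned to 0.021 for anti-PD-L1 against untreated knockout. Leaving out each library gave 22 to 33 called members for CD8 T cells against melanoma cells, 15 to 26 for CD8 T cells against macrophages (15 without the knockout untreated library), 21 to 29 for macrophages against melanoma cells, 7 to 9 for mitotic cells (7 without any 1 of the wild-type anti-PD-L1, knockout untreated and knockout anti-PD-L1 libraries) and 6 to 8 for Cxcl9-positive macrophages. The differences in inducible share ran from 13.3 to 20.04, from -8.34 to -6.03 and from 20.6 to 26.1 percentage points. For mitotic cells DESeq2 called 6 members, the other barcode listing 8 and the fit with no replicate block 1, with 7 at an unadjusted p under 0.05. For Cxcl9-positive macrophages DESeq2 called 3, and edgeR with no replicate block called 0, with 7 at an unadjusted p under 0.05. Of pairs of member and cell type, 27, 12, 35 and 11 passed 1.5-fold for knockout against wild-type untreated, the same with anti-PD-L1, treatment of wild-type and treatment of knockout; at 2-fold 2, 1, 7 and 0 did. At a floor of 50 CPM 7 passed in the second and 4 in the last, where TMM factors gave 6, the stricter cell filter 6 and cells weighted equally 7. Over single genes, 2066 values kept their direction and side of the threshold, 386 no longer passed, 9 newly passed and 14 reversed. A higher fold limit or floor leaves fewer calls by construction, and otherwise the cause was not tested. Depth limits members of low level most, and 50 melanoma cells carry the knockout anti-PD-L1 values.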

Other observations

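Over the 12 sums of 3 cell types in 4 libraries, the genes outside the name pattern whose log2 level was most like the mean of the 5 immunoproteasome genes, of 5330 compared, were H2-M3 (Pearson's r 0.972), Nrp1 (0.969), Mndal (0.966), Evi2a (0.965), Ncf1 (0.963), Aig1 (0.962), Milr1 (0.962) and Ccdc109b (0.962). Among the 5 genes themselves r was 0.970 for Psmb9, 0.961 for Psme2, 0.948 for Psmb8, 0.926 for Psme1 and 0.465 for Psmb10. The sums share libraries and depth, and the values describe these 12 sums only.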
